A study of Mus musculus with 6 samples.

Results

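The core circadian clock genes were followed here in mouse pancreatic islets exposed to cisplatin, a platinum compound that crosslinks DNA. Members were taken as all probe rows of the deposited count table whose gene symbol is Clock, Arntl (newer symbol Bmal1), Per1, Per2, Per3, Cry1, Cry2, Dbp, Nr1d1 or Nr1d2. This gave 14 probe rows for 10 genes, out of 30146 rows for 21400 gene symbols. RNA was read with TempO-Seq, which counts a ligated pair of short DNA probes for each stretch of RNA they cover, straight from cell lysate. The cisplatin group held islets from 3 male wild-type C57Bl/6 mice kept for 48 h in medium with 10 uM cisplatin. The vehicle group held the other islets of the same 3 mice, kept for the same time with 0.9% saline. Each mouse gave 1 library to each group, so there were 3 cisplatin and 3 vehicle libraries, numbered by mouse. The labels give 1 collection time and no time of day, so phase and rhythm were not measured.

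The circadian clock is a transcriptional feedback loop that runs in most cells, islet cells included. CLOCK and ARNTL bind together to E-box motifs and activate the Per, Cry, Dbp and Nr1d genes. PER and CRY proteins return to the nucleus and inhibit CLOCK and ARNTL, NR1D1 and NR1D2 repress Arntl through ROR elements, and DBP activates genes through D-boxes. The islet clock is known for its part in the daily pattern of insulin secretion.

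The promoters below show where these motifs stand in 4 member genes that could be measured and in Tef, a relative of Dbp that rose with cisplatin. They are RefSeq sequences of GRCm38.p6, 5′ to 3′ on the gene's strand, each running from 250 bases before to 50 bases after a start site, with motif matches in capitals. A Per1 window lies at chr11:69098699-69098998 on the plus strand and holds an E-box (CACGTG) that begins 166 bases before the start. The Cry1 window, chr10:85185005-85185304 on the minus strand, holds an E-box 60 bases before the start and the E-box variant AACGTG 79 bases before it. The Cry2 window, chr2:92434020-92434319 on the minus strand, holds that variant 166 bases before the start. The Per3 window, chr4:151044616-151044915 on the minus strand, holds a D-box (TTATGTAA) 205 and another 158 bases before the start. A Tef window, chr15:81802423-81802722 on the plus strand, holds an E-box 127 bases before the start.
Per1: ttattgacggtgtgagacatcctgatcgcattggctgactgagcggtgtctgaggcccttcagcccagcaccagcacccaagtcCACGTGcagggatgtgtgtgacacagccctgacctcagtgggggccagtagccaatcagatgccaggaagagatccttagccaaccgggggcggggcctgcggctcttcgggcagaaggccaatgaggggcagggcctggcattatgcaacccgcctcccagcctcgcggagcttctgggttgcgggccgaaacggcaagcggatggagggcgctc
Cry1: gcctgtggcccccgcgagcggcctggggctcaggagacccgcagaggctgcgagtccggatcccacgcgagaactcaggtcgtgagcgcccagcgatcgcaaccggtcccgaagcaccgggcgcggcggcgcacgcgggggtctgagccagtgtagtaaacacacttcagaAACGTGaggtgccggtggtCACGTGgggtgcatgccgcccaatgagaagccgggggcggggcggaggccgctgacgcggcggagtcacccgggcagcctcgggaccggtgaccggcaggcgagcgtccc
Cry2: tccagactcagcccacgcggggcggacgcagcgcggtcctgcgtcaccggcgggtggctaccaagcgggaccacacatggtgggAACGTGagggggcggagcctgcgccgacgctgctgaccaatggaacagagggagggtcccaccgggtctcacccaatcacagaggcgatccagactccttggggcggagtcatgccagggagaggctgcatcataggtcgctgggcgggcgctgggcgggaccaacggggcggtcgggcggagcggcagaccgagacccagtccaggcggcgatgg
Per3: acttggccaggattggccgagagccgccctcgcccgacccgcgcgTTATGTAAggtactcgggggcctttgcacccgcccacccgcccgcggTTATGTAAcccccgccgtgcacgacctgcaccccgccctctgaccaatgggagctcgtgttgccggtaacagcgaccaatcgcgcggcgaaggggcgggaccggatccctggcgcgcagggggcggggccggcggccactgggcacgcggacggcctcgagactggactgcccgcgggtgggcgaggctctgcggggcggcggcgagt
Tef: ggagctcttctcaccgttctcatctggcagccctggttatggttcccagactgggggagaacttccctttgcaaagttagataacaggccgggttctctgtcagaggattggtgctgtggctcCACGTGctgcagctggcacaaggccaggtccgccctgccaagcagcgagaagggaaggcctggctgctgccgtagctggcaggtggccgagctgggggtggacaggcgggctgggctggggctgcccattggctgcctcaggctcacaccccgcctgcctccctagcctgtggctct

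The motifs searched on both strands were CACGTG (E-box), CACGTT (E-box variant), TTATGTAA and TTACGTAA (D-box), TAGGTCA and TGGGTCA (core of the ROR element) and TGACGTCA (the cAMP response element), none of which contains another. Of all 32851 promoter windows in the RefSeq table, 7.15% held an E-box, 4.68% the variant, 1.06% a D-box, 6.45% a ROR element core and 1.79% a cAMP response element. Windows were found for 9 of the 10 member genes, 13 windows in all, of which 2 held an E-box and 7 held none of these motifs. Per2 had no window, and the windows of Dbp and Clock held none of the motifs. Member matches not shown above were a ROR element core (TAGGTCA) and an E-box variant (AACGTG). The first begins at position 31 counted from the start site in an Arntl window, the second 28 bases before the start in the Nr1d1 window. A match is a stretch of letters and not a tested binding site.

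None of the core clock rows passed the test between cisplatin and vehicle islets. Of 14 rows, 9 (for 7 genes) had enough counts to be tested, and 0 were called higher or lower at an adjusted p under 0.05 (edgeR's quasi-likelihood test, Benjamini-Hochberg adjustment over all 9381 tested rows). The background was 25.0% of tested rows called, 13.9% lower and 11.1% higher. Its count of 2344 rows was 1085 without vehicle library 1 and 1321 without vehicle library 3, while 0 core clock rows were called without either. Before adjustment 3 of the 9 rows had an edgeR p under 0.05, those of Clock, Cry2 and a Dbp probe. The share of all tested rows under that unadjusted threshold was not counted, so the number says nothing particular to clock genes. DESeq2 called 1 row, Cry2, higher, beside 2717 rows called in either direction over all. Most of the 95% intervals of the fold changes included 0, and a p that misses the threshold does not show that a gene was unchanged. The remaining 5 rows, among them every row of Arntl, Per2 and Nr1d2, missed the filter on low counts.

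Some facts of the whole series bear on these values. The cisplatin libraries held 1116916 to 1366829 counts and the vehicle libraries 1470227 to 2272276. After TMM scaling, which sets libraries on a common scale, 1 count was worth 0.846 to 1.07 CPM (counts relative to the scaled library total) in cisplatin libraries and 0.394 to 0.631 CPM in vehicle libraries. Cdkn1a, a cell cycle inhibitor induced by p53, had 1006, 948 and 900 CPM on its probe with more counts in cisplatin libraries, against 30.4, 61.2 and 39.4 CPM in vehicle libraries, as the labels have it. Beta cell markers took 11.9%, 11.5% and 4.55% of counts in cisplatin libraries 1 to 3 and 11.8%, 17.8% and 13.5% in vehicle libraries 1 to 3. The low end was cisplatin library 3 alone. Of the 10 tested beta cell rows 3 were called lower and 1 higher. Acinar markers took 0.000659% to 0.0034% with cisplatin and 0.000612% to 0.00172% with vehicle, with Cel, Pnlip and Prss2 at 0 throughout. Alpha cell markers took 0.549% to 1.16% with cisplatin and 1.94% to 5.48% with vehicle, with 2 of 5 tested rows called lower. Immune markers took 0.000716% to 0.003% with cisplatin and 0.0122% to 0.0276% with vehicle, with Adgre1 at 0 in cisplatin libraries and 5 of 6 tested rows called lower. Endothelial markers took 0.00883% to 0.0108% with cisplatin and 0.00816% to 0.0144% with vehicle, with Cdh5 at 0 in cisplatin libraries and 2 of 4 tested rows called lower and 2 higher. Of the delta and PP cell rows 1 of 4 and of the stromal rows 1 of 5 were lower, and of the duct and acinar rows 0 of 4 and 0 of 1 were called. The part of these shifts in the values of clock genes was not tested, and in such bulk samples fewer cells of a type and less RNA per cell cannot be told apart. Mitochondrially encoded rows took 28.6% of cisplatin library 3 and 0.188% to 3.11% of the others, and no core clock row was called without that library.

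Clock, which encodes a subunit of the activator, is located on chromosome 5 from 76209868 to 76304792 (GRCm38, GENCODE M21, as are the positions that follow), where Ube2n-ps1 and Gm43658 overlap it on the same strand. Its probe 58804 had 14, 8 and 10 counts in cisplatin libraries 1 to 3, against 60, 34 and 68 counts in vehicle libraries 1 to 3. On the TMM scale this was 11.8, 7.61 and 10.7 CPM with cisplatin and 23.7, 21.5 and 26.8 CPM with vehicle. All cisplatin libraries lay below all vehicle libraries, in each of the 3 mice. The mean was 10.1 ± 2.19 CPM with cisplatin and 24.0 ± 2.66 CPM with vehicle (SD, n = 3 each). Its log2 fold change was -1.25 ± 0.52 (SE) with a 95% interval of -2.36 to -0.14, and it was not called over all rows (edgeR, adjusted p = 0.0936). With library totals alone as the scale it was called lower (log2 fold change -1.70, adjusted p = 0.0406). Its adjusted p was 0.0406 to 0.303 over the alternatives.

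Arntl, the partner of CLOCK, was close to the limit of the assay. Its probe 59197 had 0, 3 and 0 counts in cisplatin libraries and 3, 0 and 2 counts in vehicle libraries. A library with 0 counts allows up to 3 counts, which was 2.54 and 3.22 CPM in cisplatin libraries 1 and 3 and 1.89 CPM in vehicle library 2. No difference in Arntl was detectable at this depth, and levels of the other members relative to Arntl could not be given.

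Of the period genes, which encode inhibitory partners of the cryptochromes, Per3 had enough counts in every library. Per3 (chromosome 4, 151003652 to 151044665, overlapped by Camta1 on the same strand) had 71, 71 and 73 counts with cisplatin and 145, 66 and 100 counts with vehicle. This was 60.0, 67.5 and 78.3 CPM in cisplatin libraries and 57.3, 41.7 and 39.4 CPM in vehicle libraries. The groups did not overlap, though cisplatin library 1 and vehicle library 1, of the same mouse, lay close together. The mean was 68.6 ± 9.17 CPM with cisplatin and 46.1 ± 9.77 CPM with vehicle (SD, n = 3 each), a log2 fold change of 0.57 ± 0.34 (95% interval -0.15 to 1.29), not called (edgeR, adjusted p = 0.240).

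Per1, a period gene that also responds quickly to cAMP and hormone signals, was measured on few counts. Its probe 60360 had 8, 14 and 6 counts in cisplatin libraries, or 6.77, 13.3 and 6.43 CPM, against 20, 2 and 13 counts in vehicle libraries, or 7.91, 1.26 and 5.12 CPM. The groups overlapped, with the highest value in cisplatin library 2 and the lowest in vehicle library 2. Per1 had a log2 fold change of 0.85 ± 0.84, with a 95% interval of -0.97 to 2.66 (edgeR, adjusted p = 0.509). Per2, whose product is a central repressor of the loop, had 0 counts in every cisplatin library and 5, 0 and 5 counts in vehicle libraries. The 0 counts allow up to 2.54, 2.85 and 3.22 CPM in cisplatin libraries 1 to 3, above the 1.98 and 1.97 CPM of vehicle libraries 1 and 3. The Per2 counts summed to 0 over the cisplatin libraries, against 10 over the vehicle libraries, and the scaled ratio of cisplatin to vehicle had a 95% counting interval of 0 to 0.937, which covers counting error and not the spread between libraries. Per2 was not tested between replicates, and vehicle library 2 was also at 0.

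The cryptochrome genes encode the strongest repressors of CLOCK and ARNTL, and Cry2 was the most precisely measured member. Cry2 (chromosome 2, 92403646 to 92434043, where D930015M05Rik overlaps it on the other strand) had 355, 340 and 311 counts on probe 74559 with cisplatin and 539, 288 and 495 with vehicle. On the TMM scale this was 300.2, 323 and 334 CPM in cisplatin libraries and 213, 182 and 195 CPM in vehicle libraries. The groups did not overlap and the spread within each was narrow. The mean was 319 ± 17.1 CPM with cisplatin and 197 ± 15.7 CPM with vehicle (SD, n = 3 each), which is 1.62-fold higher with cisplatin. The log2 fold change was 0.70 ± 0.25, with a 95% interval of 0.16 to 1.24, and Cry2 was not called (edgeR, adjusted p = 0.0568). Cry2 was called higher by DESeq2 (log2 fold change 0.74, adjusted p = 0.0182) and with probes summed per gene (0.67, edgeR adjusted p = 0.0490). Cry2 has 1 probe row, so summing left its own counts as they were and changed only the other rows of the fit. With library totals alone its log2 fold change was 0.21 (edgeR, adjusted p = 0.659). Cry2 had an adjusted p of 0.0182 to 0.659 over the alternatives.

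Cry1 (chromosome 10, 85131700 to 85185064) was read by 3 probes, of which 1 was tested. Probe 31531 had 76, 69 and 65 counts with cisplatin and 117, 85 and 131 with vehicle. On the TMM scale this was 64.3, 65.6 and 69.7 CPM in cisplatin libraries, against 46.3, 53.7 and 51.6 CPM in vehicle libraries, and the groups did not overlap. Cry1 had a log2 fold change of 0.40 ± 0.32 (95% interval -0.29 to 1.08; edgeR, adjusted p = 0.395), and it was -0.07 with library totals alone. Probe 64965 had 0, 16 and 2 counts with cisplatin and 16, 0 and 15 with vehicle, so each group held a library at 0. Probe 75799 had 0, 0 and 6 counts with cisplatin and 12, 8 and 11 with vehicle. Both of these probes were too low to be tested.

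Dbp encodes a transcription factor that acts at D-boxes and is a classic output of the loop. It lies on chromosome 7 from 45705088 to 45710203, where its end overlaps Sphk2 on the other strand, and whether a probe also took reads of an overlapping gene cannot be told from the table. Its probe with the most counts, 31391, had 109, 62 and 86 counts with cisplatin and 257, 129 and 279 with vehicle, or 92.2, 58.9 and 92.2 CPM in cisplatin libraries against 102, 81.4 and 110 CPM in vehicle libraries. Each mouse had the lower value with cisplatin, but the groups overlapped. The log2 fold change of this Dbp probe was -0.27 ± 0.31 (95% interval -0.94 to 0.41; edgeR, adjusted p = 0.581).

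The other Dbp probes had larger differences on fewer counts. Probe 71354 had 14, 13 and 10 counts with cisplatin and 71, 38 and 59 with vehicle, or 11.8, 12.4 and 10.7 CPM in cisplatin libraries against 28.1, 24.0 and 23.2 CPM in vehicle libraries, with no overlap. Its log2 fold change was -1.10 ± 0.49 (95% interval -2.16 to -0.05; edgeR, adjusted p = 0.118). Dbp probe 68139 had 4, 19 and 5 counts with cisplatin and 86, 19 and 59 with vehicle. On the TMM scale this was 3.38, 18.1 and 5.36 CPM in cisplatin libraries against 34.0, 12.0 and 23.2 CPM in vehicle libraries. Mouse 2 had the higher value with cisplatin, whereas mice 1 and 3 had the lower one. The log2 fold change of this Dbp probe was -1.37 ± 0.68 (edgeR, adjusted p = 0.158), and without cisplatin library 2 it was -2.42 and called lower (adjusted p = 0.0408). With library totals alone probes 71354 (-1.57, adjusted p = 0.0480) and 68139 (-1.93, adjusted p = 0.0447) were called lower. Summed over its probes, Dbp had 127, 94 and 101 counts with cisplatin and 414, 186 and 397 with vehicle, a log2 fold change of -0.55 ± 0.27 (edgeR, adjusted p = 0.152).

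The nuclear receptor genes Nr1d1 and Nr1d2, which encode repressors of Arntl, were low. Nr1d1 (chromosome 11, 98767932 to 98775333, overlapped by Thra on the other strand) had 19, 8 and 6 counts with cisplatin and 29, 23 and 16 with vehicle. On the TMM scale this was 16.1, 7.61 and 6.43 CPM in cisplatin libraries, against 11.5, 14.5 and 6.30 CPM in vehicle libraries, and the groups overlapped. Nr1d1 had a log2 fold change of -0.08 ± 0.68, with a 95% interval of -1.54 to 1.39 (edgeR, adjusted p = 0.951). Nr1d2 had 0, 4 and 1 counts with cisplatin and 5, 4 and 2 with vehicle and was not tested.

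**Figure D1:**
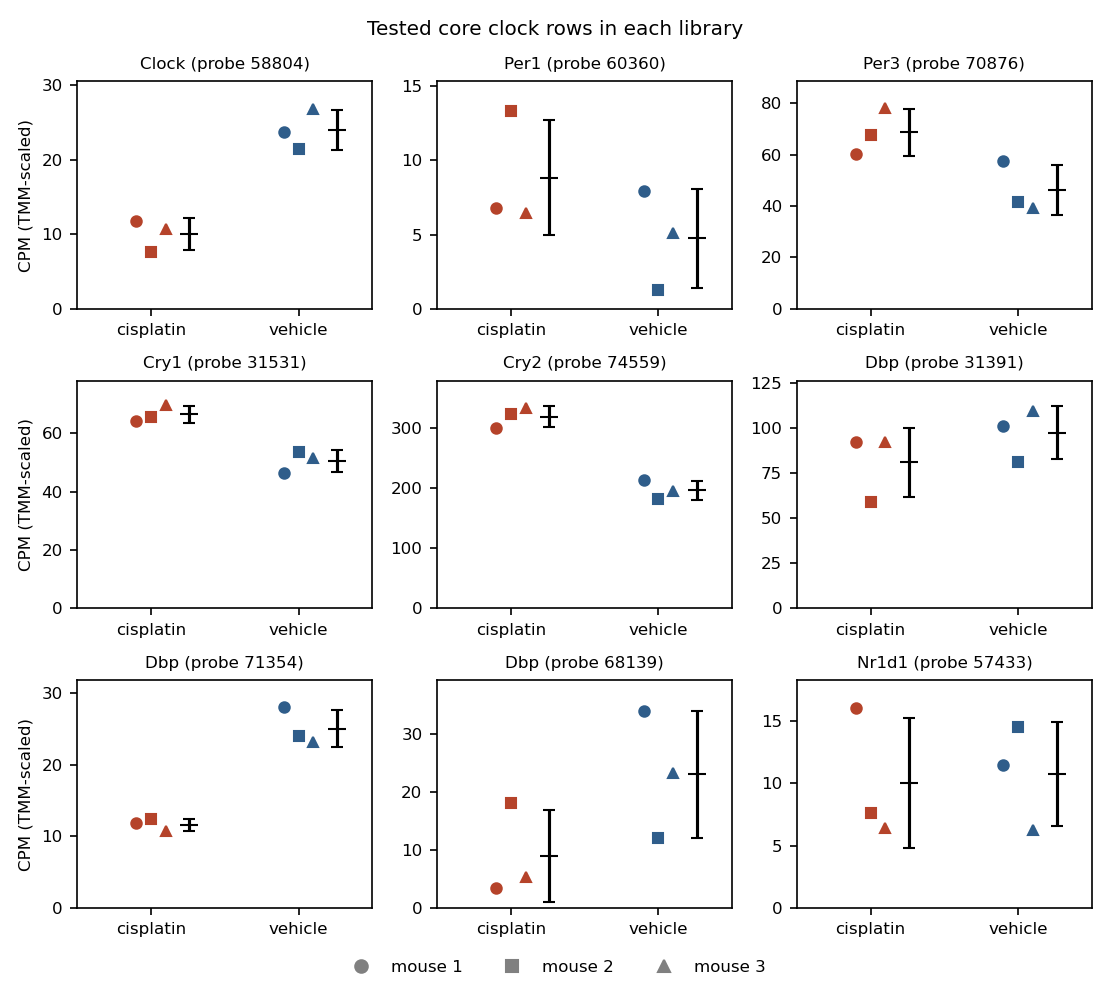
TMM-scaled CPM (linear axes from 0) of the 9 tested core clock rows in each library, with cisplatin left of vehicle, 1 symbol per mouse and the mean with SD over 3 libraries beside the points. Clock and Dbp probe 71354 lay lower and Cry1, Cry2 and Per3 higher in all cisplatin libraries, whereas Per1, Nr1d1 and the other Dbp probes overlapped between groups.

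Among the 9 tested rows, 2 had all cisplatin libraries below all vehicle libraries and 3 had them all above. Over all tested rows these shares were 24.3% and 19.1%. The log2 fold change was negative in 5 of the 9 rows and positive in 4, with a median of -0.08, beside a median of -0.07 over all tested rows. Probes differ in how well they capture their RNA, so levels are compared between groups within a probe and are not ranked between genes.

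Ratios of counts within a library need no scaling factor, and those given here were chosen after their values were seen and carry no test. The ratio of Cry2 to Clock counts was 25.4, 42.5 and 31.1 in cisplatin libraries, against 8.98, 8.47 and 7.28 in vehicle libraries. The ratio of Cry2 to the Dbp probe with the most counts was 3.26, 5.48 and 3.62 with cisplatin and 2.10, 2.23 and 1.77 with vehicle. In both ratios every cisplatin library lay above every vehicle library. Within a library a ratio of counts equals the ratio of CPM, so all ratios given here restate the CPM values above. They are no separate evidence. For Cry2 over Clock, Cry2 was higher and Clock lower in all cisplatin libraries. The ratio of Per3 to that Dbp probe was 0.651, 1.15 and 0.849 with cisplatin and 0.564, 0.512 and 0.358 with vehicle. The Dbp probes did not keep 1 ratio to each other. Probe 71354 over probe 31391 was 0.128, 0.210 and 0.116 with cisplatin and 0.276, 0.295 and 0.212 with vehicle, and probe 68139 over probe 31391 was 0.0367, 0.307 and 0.0581 with cisplatin and 0.335, 0.147 and 0.212 with vehicle.

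**Figure D2:**
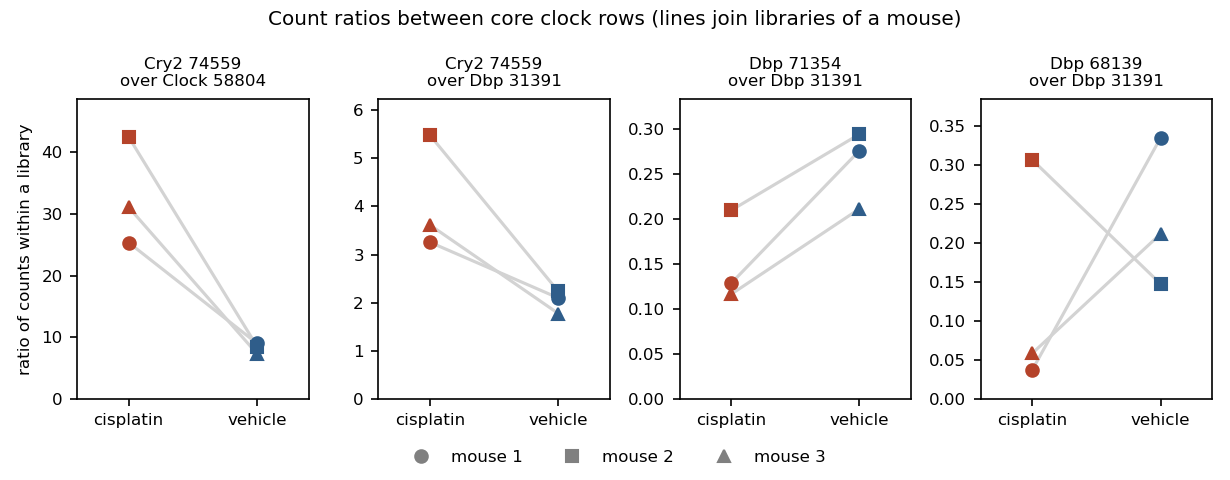
Ratios of counts within each library (linear axes from 0), cisplatin left of vehicle, with lines joining the libraries of a mouse. Each ratio restates the CPM of its rows. The ratio of Cry2 to Clock was 25.4 to 42.5 with cisplatin and 7.28 to 8.98 with vehicle. The ratio of Dbp probe 68139 to 31391 was higher with cisplatin in mouse 2 and lower with cisplatin in mice 1 and 3.

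Calls of member rows depended on the scale. With library totals alone, the median log2 fold change of all tested rows moved to -0.54 and 2482 rows were called in either direction. In that setting 3 core clock rows were called lower, those of Clock and of Dbp probes 71354 and 68139, and 0 higher. The share of all rows called lower there was not counted, and the Dbp probes belong to 1 gene. With the mouse as a block, and after thinning all libraries to the same depth, 0 core clock rows were called.

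**Figure D3:**
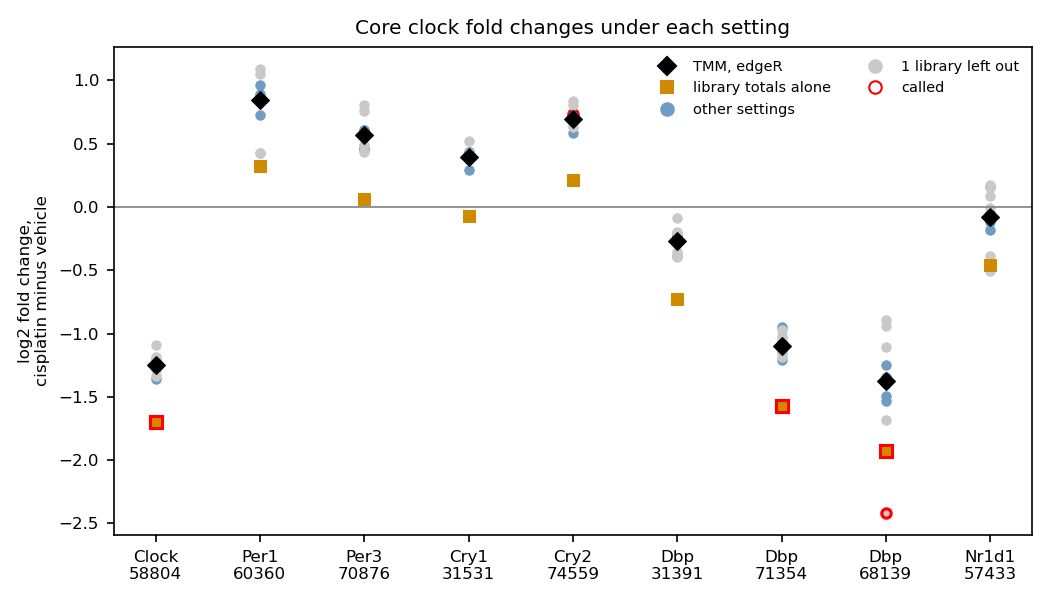
Log2 fold change (cisplatin minus vehicle) of each tested core clock row under the reported setting (diamonds), library totals alone (squares), other settings and each library left out (circles), with a red outline where the row was called. Clock and Dbp probes 71354 and 68139 were called lower with library totals alone, and Cry2 was called higher by DESeq2.

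Genes that act around the core loop were taken as 5 lists from general knowledge, with earlier results of these data known. The further loop factors comprised 11 genes with 14 rows, of which 5 rows for 4 genes were tested, with 3 called higher and 0 lower, beside 11.1% higher and 13.9% lower over all tested rows. Bhlhe40, also called Dec1, a repressor that competes for E-boxes, rose on both of its probes. Probe 31406 of Bhlhe40 had 40, 58 and 31 counts with cisplatin and 28, 12 and 11 with vehicle, a log2 fold change of 2.40 ± 0.52 (edgeR, adjusted p = 0.00462). Probe 32105 had 59, 48 and 16 counts with cisplatin and 4, 1 and 17 with vehicle, a log2 fold change of 3.56 ± 0.74 (edgeR, adjusted p = 0.00357), which was 4.88 without vehicle library 3. Both Bhlhe40 rows were called in every alternative. In GENCODE a gene on the other strand overlaps Bhlhe40 (0610040F04Rik) and another overlaps Tef (Gm17597). Tef, which like Dbp encodes an activator at D-boxes, had 50, 106 and 39 counts on probe 63834 with cisplatin and 51, 42 and 37 with vehicle, a log2 fold change of 1.60 ± 0.45 (edgeR, adjusted p = 0.0190). Tef was not called with library totals alone (adjusted p = 0.0998) or without cisplatin library 2 (0.128) or vehicle library 1 (0.0807) or 3 (0.105), and its adjusted p was otherwise 0.00466 to 0.0328. Rora, which encodes an activator of Arntl, was tested and not called (0.21 ± 0.48). Npas2, a stand-in for CLOCK, had 2 counts over all cisplatin libraries and 27 over all vehicle libraries and was not tested, nor were Bhlhe41, Ciart, Cipc, Hlf, Nfil3 and Rorb.

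Enzymes that modify clock proteins comprised 17 genes with 33 rows, of which 14 rows were tested, with 0 called higher and 2 lower, a share near the 13.9% called lower over all tested rows. The number was 4 lower without cisplatin library 3 and 1 without any other single library, while 1 was higher without cisplatin library 1 or 2. Gsk3b, a kinase that acts on several clock proteins, fell on its tested probe, 30435. This probe had 13, 8 and 10 counts with cisplatin against 131, 89 and 102 with vehicle (log2 fold change -2.33 ± 0.44, edgeR, adjusted p = 0.00194). It was called in every alternative. The other Gsk3b probe, 79477, was not tested, with 5, 1 and 4 counts with cisplatin and 5, 14 and 23 with vehicle. Btrc, a ubiquitin ligase subunit that targets PER proteins, had 5, 5 and 23 counts with cisplatin and 87, 97 and 72 with vehicle (-1.90 ± 0.64, edgeR, adjusted p = 0.0423). Btrc was -3.16 without cisplatin library 3, and was not called without any other single library (adjusted p = 0.0605 to 0.177) or with RLE factors (adjusted p = 0.0513). The kinase genes Csnk1d and Csnk1e, which phosphorylate PER proteins, were not called on any of their 5 tested rows. Csnk1d changed by 0.43 ± 0.28. Csnk1e changed by 0.71 ± 0.28 on probe 63627 (edgeR, adjusted p = 0.0799), 0.77 ± 0.36 on 31995, 0.29 ± 0.35 on 69548 and 0.54 ± 0.82 on 31607.

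Cofactors of clock transcription comprised 14 genes with 30 rows, of which 18 rows for 11 genes were tested. Of these rows 0 were called higher and 7 lower, beside the 13.9% called lower over all rows. The 7 rows came from Ncor1, Crebbp, Tbl1x and Kmt2a alone, and probes of a gene are not replicates. With probes summed per gene 4 were lower. Ncor1, the corepressor through which NR1D1 acts, fell on both tested probes. Probe 71276 of Ncor1 had 12, 31 and 36 counts with cisplatin and 389, 312 and 537 with vehicle (-2.86 ± 0.42, edgeR, adjusted p = 0.000369), and probe 74346 changed by -1.06 ± 0.33 (adjusted p = 0.0306). Crebbp, a histone acetyltransferase and coactivator, fell on 3 probes, with log2 fold changes of -2.48 ± 0.39 on probe 31272, -2.05 ± 0.58 on probe 74876 and -1.67 ± 0.48 on probe 66299. Tbl1x, a subunit of the Ncor1 complex, changed by -1.20 ± 0.38 (edgeR, adjusted p = 0.0342). Kmt2a, a histone methyltransferase, changed by -1.02 ± 0.35 on probe 65078 (edgeR, adjusted p = 0.0452), the row meant below. Its other tested probe, 75957, was not called (-0.90 ± 0.46, edgeR, adjusted p = 0.173). Ncor1 probe 71276 and Crebbp probe 31272 were called in every alternative. The other calls were lost in some fits with 1 library left out, which hold fewer libraries. In such fits Ncor1 probe 74346 was called without cisplatin library 1 only, Tbl1x without cisplatin library 2 only and Kmt2a without vehicle library 2 only. Without each other library their edgeR adjusted p was 0.0540 to 0.305. Their log2 fold changes stayed at -1.13 to -0.91 (Ncor1 probe 74346), -1.48 to -0.94 (Tbl1x) and -1.21 to -0.68 (Kmt2a). The call of Crebbp probe 66299 was lost without cisplatin library 2 (adjusted p = 0.0752), and neither it nor probe 74876 was called without vehicle library 1 (0.159 and 0.131) or 3 (0.0999 and 0.0562). With the mouse as a block Kmt2a was not called (adjusted p = 0.0504), nor after thinning (0.0501). The number of cofactor rows lower was 2 without vehicle library 1 or 3 and 4 without cisplatin library 2 or 3. Over all tested rows the number called also fell, from 2344 to 1085 without vehicle library 1 and to 1321 without vehicle library 3.

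The input through CREB, a cAMP-responsive activator of Per genes, comprised 9 genes with 15 rows. Of these 7 rows were tested and 0 called by edgeR, beside 25.0% called over all tested rows, and DESeq2 called 0. An unadjusted edgeR p under 0.05 was seen in 1 row, a share not counted over all rows. Without cisplatin library 1 the number called lower was 2, and without cisplatin library 2 it was 1. The tested rows with the highest mean CPM on their probes, a rule for naming rows and no order of the genes, were those of the coactivators Crtc2 (0.75 ± 0.35, adjusted p = 0.140) and Crtc3 (-1.26 ± 0.50, adjusted p = 0.0790), which lay on opposite sides of 0. Genes that are rhythmic in many tissues comprised 8 genes with 15 rows, of which 7 were tested, with 0 higher and 1 lower, a share near the 13.9% called lower over all tested rows, and 1 higher without cisplatin library 1. Fkbp5, a glucocorticoid-responsive chaperone gene, had 109, 84 and 133 counts on probe 29670 with cisplatin and 693, 280 and 561 with vehicle (-1.10 ± 0.31, edgeR, adjusted p = 0.0192). The other tested Fkbp5 probe, 77799, was not called (-1.61 ± 0.81, edgeR, adjusted p = 0.163). The call of Fkbp5 probe 29670 was lost without cisplatin library 1 (adjusted p = 0.0852) or 2 (0.0731) or vehicle library 1 (0.170) or 3 (0.0600), and its adjusted p was otherwise 0.00188 to 0.0288.

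**Figure D4:**
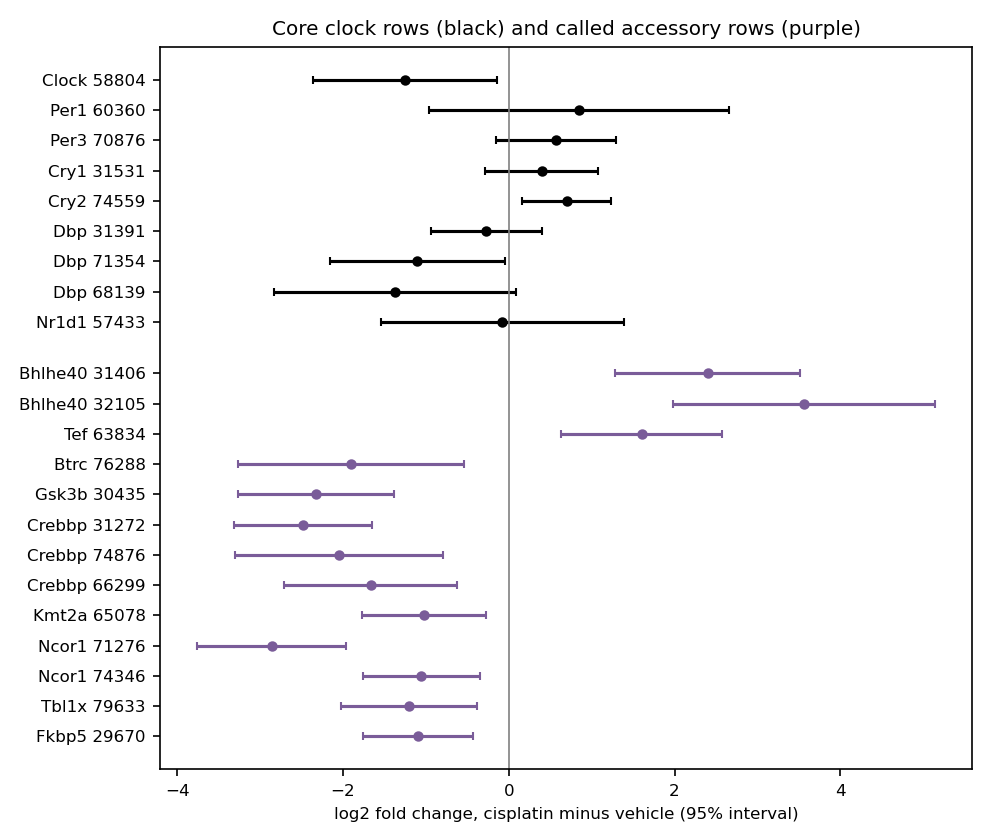
Log2 fold change (cisplatin minus vehicle, horizontal axis) with its 95% interval for the 9 tested core clock rows (black) and the 13 called rows of the accessory lists (purple), each labelled with gene and probe. Bhlhe40 and Tef stood above 0, and the called rows of Btrc, Gsk3b, Crebbp, Kmt2a, Ncor1, Tbl1x and Fkbp5 stood below it, while 3 of the core clock intervals did not reach 0 and none passed after adjustment.

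The pattern of Cry2, the tested member row with the highest mean CPM on its probe, was set against all other tested rows by the Pearson correlation of log2 CPM over the 6 libraries. The rows most like it were Mybl1 (r = 0.996), Frmd8 (r = 0.995) and Cirbp (r = 0.995). These 6 points share the split into cisplatin and vehicle libraries, and the values are a description. Cirbp, a cold-inducible RNA-binding protein gene, had 188, 192 and 201 CPM with cisplatin and 130, 116 and 128 CPM with vehicle, a log2 fold change of 0.63 that was not called (edgeR, adjusted p = 0.0893). Mybl1 was called higher (4.49), and so was Frmd8 (1.92).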

How the data were processed

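The authors deposited whole-number counts per probe and library, which are raw and not normalised. Per the labels' protocols, libraries were made with the TempO-Seq MouseWT v1.1 probe set. DESeq2 1.44.0, STAR 2.7.10b and fastp 0.23.2 appear in the submitters' processing notes without a stated role. Neither the build nor the counting rules or probe sequences are stated in the sources used here. No row lacked a gene name.

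The analysis used R 4.3.3 with edgeR 4.0.16 and its base package limma 3.58.1. Rows had to pass filterByExpr at a minimum count of 10, libraries were scaled with TMM factors, and rows were tested two-sided with the quasi-likelihood F-test (robust, treatment as the only term), with Benjamini-Hochberg adjustment over 9381 rows. Log2 fold changes are cisplatin minus vehicle. SE values were derived from fold change and F statistic, and 95% intervals from that SE. P-values measure the spread between libraries, which holds animal and assay variation. Floors of 3 counts cover counting error alone, as PCR copies of a molecule are counted separately.

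Members and lists were chosen with earlier results of these data known. Named were all member rows, every called row of the lists, the 2 tested rows of highest mean CPM in a list with none called, Cdkn1a, and the 3 rows most like the member row of highest mean CPM. Other rows of these lists that are named, and the count ratios, were chosen after their values were seen. Some list genes are not reported here by name, while counts over lists include them. Both libraries of a mouse carry the same animal identifier in the labels. Deviations from the group means correlated at -0.116, 0.0336 and 0.219 within the 3 mice, and the mouse block was run as an alternative. The planned differences from Arntl were not made, since Arntl had at most 3 counts in a library and 0 in 3 of 6. Alternatives were RLE factors, library totals alone, no filter, DESeq2 1.42.0, a mouse block, probes summed per gene, thinning to 1116916 counts and each library left out. No replicate pair agreed within sampling noise (chi-square per degree of freedom 8.08 or more). The analysis was run on simulated counts with the same relative spread set for every row, which checks the code and not its behaviour on these data.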

Additional observations from a re-analysis of the deposited data

How the results depend on the processing

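Over all rows the number called was 2344, and 1085 to 2538 with 1 library left out, with the lowest without vehicle library 1 and 1321 without vehicle library 3. No core clock row was called with RLE factors, no filter, the mouse block or thinning, or with 1 library left out, except for Dbp probe 68139 without cisplatin library 2, so 0 to 1 were lower. Library totals alone gave 3 lower, beside 2482 rows called in either direction over all. DESeq2 and probes summed per gene each gave 1 higher, Cry2, beside 2717 rows and 2100 genes called over all. Core clock directions turned for Cry1 with library totals alone (-0.070) and for Nr1d1 after thinning (0.15) and without cisplatin library 2 (0.09) or 3 (0.16) or vehicle library 2 (0.17), with a range of -0.50 to 0.17 over the libraries left out. Of the enzymes, 1 to 4 were lower and 0 to 1 higher with 1 library left out, 1 lower and 1 higher with RLE factors, 2 higher with DESeq2 and 1 higher after thinning. Of the cofactors, 2 to 5 were lower with 1 library left out and 4 with probes summed per gene, which tests fewer rows. Of the CREB genes, 0 to 2 were lower with 1 library left out and 2 with library totals alone. Of the rhythmic genes, 0 to 1 were lower and 0 to 1 higher with 1 library left out, 2 lower with library totals alone and 1 higher with probes summed per gene. Of the further loop factors, 2 to 3 were higher with 1 library left out. With the mouse as a replicate block 2197 rows were called, 6 cofactors were lower and Kmt2a alone among the named rows lost its call. Per1 could not be tested after thinning or without vehicle library 1. Counts under about 10 in a library limited what could be tested for Arntl, Per2 and Nr1d2. Where a count moved, the cause was not tested.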

Other observations

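Probes 69548 and 31995 of Csnk1e held the same counts in every cisplatin library, 66, 75 and 47, but not in the vehicle libraries, where they held 130, 93 and 91 and 107, 48 and 79. Among rows with 10 or more counts in all 3 cisplatin libraries, this was the 1 set of probes of a gene with equal cisplatin counts, and there were 0 such sets in the vehicle libraries. The cause was not tested.

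The probes of Lonrf3, listed among the rhythmic genes and too low to be tested, had totals of 35 and 42 counts in cisplatin libraries against 16 and 13 in vehicle libraries. Sik3 probe 69934, also too low to be tested, had 1 count over all cisplatin libraries and 50 over all vehicle libraries. These totals are unscaled, and the vehicle libraries held more counts. The other Sik3 probe, 63846, had 1, 8 and 18 counts with cisplatin and 54, 26 and 77 with vehicle. It was tested and not called (-1.33 ± 0.74, edgeR, adjusted p = 0.212).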
